A study of Mus musculus with 6 samples.

Results

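Tnfrsf25 encodes a death-domain receptor of the tumour necrosis factor (TNF) receptor superfamily. It is described here with 9 genes of the same pathway, chosen by name: the receptor genes Tnfrsf1a, Tnfrsf1b, Tnfrsf10b, Tnfrsf12a, Tnfrsf19 and Tnfrsf21, and Tradd, Fadd and Ripk1, which encode proteins that bind the receptors' death domains. All 10 were found among the 54040 rows of the gene table, and all 10 passed the filter on low counts that left 16928 genes for testing. The study concerned YTHDF2, a reader protein that binds N6-methyladenosine in messages and directs them to decay, in the mouse dentate gyrus. The group labelled cKO held 3 libraries from YTHDF2-deficient dentate gyrus, and the group labelled Ctrl held 3 from negative control dentate gyrus, all of C57BL/6 mice at postnatal day 40. No Cre driver, deleted exon, control allele or pooling of animals is given in the sources used here. Tnfrsf25 was picked because it differed between these groups in an earlier look at the same libraries, and the other 9 were added by name with their values already known. The difference between cKO and Ctrl is therefore given for all 10 genes as a description, without p-values, and the calls of the tests over all genes are listed once beside the share of all genes called.

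Receptors of this family are trimeric membrane proteins that are engaged by trimeric ligands. Those with a death domain in the cytoplasm recruit TRADD or FADD, and through them RIPK1, TRAF proteins, ubiquitin ligases and caspase-8, and the assembled complex leads either to activation of NF-kB or to cell death. The receptor made from Tnfrsf25 is best known from T lymphocytes, where its ligand, the product of Tnfsf15, acts as a costimulator. Receptors without a death domain bind TRAF proteins directly.

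The libraries summed to between 16794642 and 19190101 counts, so that 3 counts stood for 0.156 to 0.179 CPM (each count relative to its TMM-scaled library total). Ythdf2 itself, at 56.8, 56.5 and 54.5 CPM in cKO replicates 1 to 3, did not separate the groups, since Ctrl replicates 2 and 3 held 68.6 and 68.4 CPM and the library labelled Ctrl replicate 1 only 37.9 CPM. That library went against its label for the targeted gene, and several fold changes are given with and without it. The labels name granule cells but no sorting, and beside the 16 granule cell markers, all of which were tested, markers of glia and vessels were present, so the libraries are those of a tissue. The granule cell markers summed to 4116.5 to 4305 CPM in cKO and 3965 to 4172 CPM in Ctrl, which overlap. Of these markers 2 rose and 1 fell by edgeR's test, while DESeq2 called 5 and limma 1. Of all 16928 tested genes edgeR called 3.95%, DESeq2 803 genes and limma 110 or 95. The 14 microglial markers summed to 403 to 426 CPM in cKO and 470 to 509 CPM in Ctrl, and 6 of the 13 tested ones fell by edgeR's test (3 called without Ctrl replicate 1). The 10 astrocyte markers summed to 5508 to 5519 CPM in cKO and 5893 to 6051 CPM in Ctrl, and 3 of them fell (4 called without Ctrl replicate 1). Another 2 astrocyte markers had positive log2 fold changes. Over all tested genes 0.874% were called as lower. By limma no marker of these 2 lists was called. The 10 markers of the oligodendrocyte lineage overlapped, at 1499 to 1646 CPM in cKO and 1519 to 1704 CPM in Ctrl. In such bulk samples fewer cells of a type and less RNA per cell cannot be told apart. Since no label says whether the replicates are separate animals, the p-values speak of the spread among these 6 libraries, which may be technical.

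Tnfrsf25 lies on the plus strand of chromosome 4, from 152115934 to 152120119 in GRCm38, in a tightly packed stretch. Plekhg5, on the same strand, ends 533 bases before it, and Espn, on the opposite strand, ends 211 bases after it. Of the 4 transcripts annotated by GENCODE M21, the coding one with 10 exons starts at 152115934 and another coding one, with 7 exons, starts 409 bases further on. The gene counts do not separate these transcripts. Of the other genes Tnfrsf1b also lies on chromosome 4 (145213463 to 145246870, minus strand). Tnfrsf10b and Tnfrsf19 lie on chromosome 14, Tnfrsf12a and Tnfrsf21 on chromosome 17, Tnfrsf1a on 6, Fadd on 7, Tradd on 8 and Ripk1 on 13. The stretch around the upstream start is shown because most of it lies between the gene and Plekhg5. It is the RefSeq promoter of GRCm38.p6, chr4:152115684-152115983 on the plus strand, which runs from 250 bases before the start to 50 after it and begins 283 bases past the end of Plekhg5. Capitals mark the GC boxes (GGGCGG).
Tnfrsf25 promoter: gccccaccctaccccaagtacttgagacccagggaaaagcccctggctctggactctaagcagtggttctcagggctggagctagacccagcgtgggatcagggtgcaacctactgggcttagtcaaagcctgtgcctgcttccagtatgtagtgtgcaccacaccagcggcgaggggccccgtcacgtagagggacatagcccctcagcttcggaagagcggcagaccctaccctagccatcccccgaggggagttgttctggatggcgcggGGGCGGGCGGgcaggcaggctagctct
This window holds 63.3% G and C, against a median of 52.7% over 32851 promoter windows. It holds 2 overlapping GC boxes, a motif found on either strand in 35.7% of all windows. Both lie past the start, inside the transcript, at offsets of 24 and 28 bases, and the window at the gene's downstream start holds none. The printed window was also searched on both strands for the TATA box (TATAAA), which 13.6% of all windows hold, the CCAAT box (CCAAT), held by 37.4%, and the cAMP response element (TGACGTCA), held by 1.79%. None of these was found in it. RefSeq windows were at hand for 8 of the 10 genes, 11 windows in all, and 8 of the 11, from 7 genes, held a GC box while none held any of the other 3 motifs.

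YTHDF2 binds methylated adenosines, which often lie in sequences such as GGACT. In its longest annotated coding transcript, of 1661 bases, Tnfrsf25 holds GGACT at 1 place on the sense strand, in the 3′ UTR. That is 0.602 per kilobase, fewer than in most tested genes, of which 25.5% have a lower density. The median over 16710 tested genes with a transcript was 1.02 per kilobase. Tnfrsf10b also holds 1, whereas Tnfrsf12a and Tradd hold 2 each, Tnfrsf21 and Tnfrsf1b 4 each, Tnfrsf1a 5, Tnfrsf19 and Fadd 7 each and Ripk1 8. The sites nearest to the end of the coding sequence are shown for the 3 genes with the highest levels, from GENCODE M21 transcripts, with GGACT in capitals.
Tnfrsf25 site: ccgagtttGGACTtggtatta
Tnfrsf21 site: accctcttGGACTctgtgtac
Tnfrsf19 site: tgctcaaaGGACTccaagcca
These sites start 242 bases after the last coding base in Tnfrsf25, and 36 and 76 bases before it in Tnfrsf21 and Tnfrsf19. Whether any of them carries a methyl group was not measured in these libraries.

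Levels of different genes are compared here in the authors' FPKM, counts scaled for gene length and library size. By their means over all 6 libraries the 10 genes fell into 5 tiers. Tnfrsf21, a death-domain receptor gene, averaged 31.4 ± 1.43 FPKM and Tnfrsf25 28.4 ± 9.92 FPKM (SD over n = 6 libraries). Between these 2 genes the order turned with the group, as Tnfrsf25 was the higher in 3 of 3 cKO libraries and Tnfrsf21 in 3 of 3 Ctrl libraries. Tnfrsf19, whose receptor is a partner of the Nogo receptor and lacks a death domain, followed at 12.8 ± 1.61 FPKM, below Tnfrsf25 in every library.

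Tradd, Tnfrsf1a and Tnfrsf12a stood next, at 3.08 ± 0.135, 3.05 ± 0.348 and 2.93 ± 0.227 FPKM, and did not differ from each other beyond their spread. TRADD is the adaptor shared by TNF receptor 1, the product of Tnfrsf1a, and the Tnfrsf25 receptor, and Tnfrsf12a encodes the receptor for the ligand made from Tnfsf12. The next tier held the kinase gene Ripk1 (0.869 ± 0.168 FPKM), the TNF receptor 2 gene Tnfrsf1b (0.655 ± 0.164 FPKM) and the adaptor gene Fadd (0.486 ± 0.170 FPKM), each of which overlapped with the next in that order. Tnfrsf10b, which encodes the mouse death receptor for the TRAIL ligand, was lowest in every library at 0.121 ± 0.0363 FPKM. The steps from Tnfrsf25 to Tnfrsf19, from Tnfrsf19 to Tradd, from Tnfrsf12a to Ripk1 and from Fadd to Tnfrsf10b were larger than the spread, with no overlap between the genes over the 6 libraries. The order of the means was the same by normalised counts per kilobase.

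**Figure D1:**
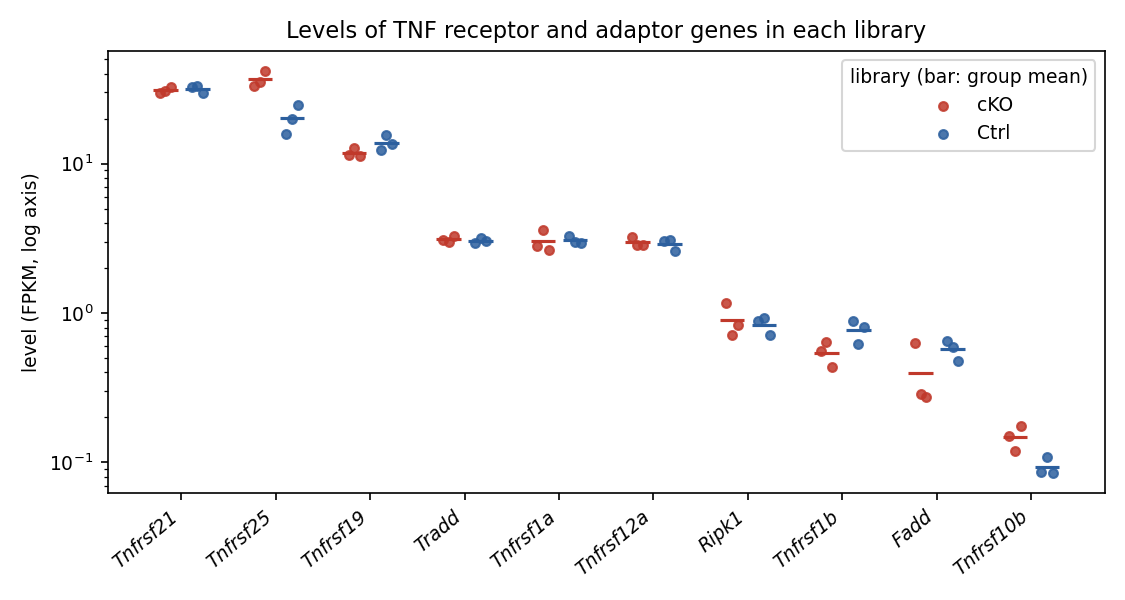
Level of each of the 10 genes (FPKM, log axis) in each library, with cKO libraries left of Ctrl libraries and bars for group means. Tnfrsf25 lies between 33.2 and 41.8 FPKM in cKO and between 15.7 and 24.8 FPKM in Ctrl, whereas Tnfrsf21 lies between 29.8 and 32.4 FPKM in cKO and between 29.7 and 32.9 FPKM in Ctrl.

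Tnfrsf25 had 76.2, 80.1 and 95.8 CPM in cKO replicates 1 to 3, against 35.9, 45.6 and 56.4 CPM in Ctrl replicates 1 to 3. Every cKO library thus lay above every Ctrl library, and within each group replicate 3 was the highest. These levels rested on 1287, 1341 and 1778 counts in cKO and 602, 769 and 1088 counts in Ctrl. The means were 84.0 ± 10.4 CPM in cKO and 46.0 ± 10.3 CPM in Ctrl (SD, n = 3 each), a ratio of 1.83 and a log2 fold change of 0.87 ± 0.12 (SE). The log2 fold change was 0.72 when Ctrl replicate 1 was left out, and 0.81 with an offset for GC content and gene length.

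The spread between replicates was wide for Tnfrsf25, with and without Ctrl replicate 1. The SD of log2 CPM within groups was 0.26, against a median of 0.07 over the 4528 genes within 2-fold of its mean CPM, and 99.5% of the others had a smaller one. When Ctrl replicate 1 was left out the SD was 0.19, against a median of 0.06, and 98.7% of the others had a smaller one. The coefficient of variation was 12.3% in cKO and 22.4% in Ctrl, or 15.1% over Ctrl replicates 2 and 3. Tnfrsf21, at a similar level in FPKM, had coefficients of 4.14% in cKO and 5.77% in Ctrl. Other genes of the set also varied widely for their level. Of the genes within 2-fold of its mean CPM, 95.0% had a smaller SD than Tnfrsf19, 92.4% than Ripk1 and 89.1% than Fadd. For the rest of the set this share was 2.94% (Tradd) to 68.8% (Tnfrsf21).

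The other death-domain receptors differed less in either direction. Tnfrsf21 had 108.9, 112.4 and 118.2 CPM in cKO replicates 1 to 3 and 119.1, 119.5 and 107.8 CPM in Ctrl replicates 1 to 3, with full overlap and a log2 fold change of -0.03 ± 0.05 (SE). Tnfrsf1a had 7.34, 9.44 and 6.89 CPM in cKO and 8.53, 7.82 and 7.63 CPM in Ctrl, again overlapping (-0.02 ± 0.14). Tnfrsf10b held 14, 11 and 18 counts in cKO and 8, 10 and 9 counts in Ctrl. These few counts do not overlap between the groups, and its log2 fold change of 0.68 had the widest standard error of the 10 genes, 0.36. By limma on log2(FPKM + 0.1) it was 0.36 and on log2(FPKM + 1) 0.07.

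Among the receptors without a death domain, Tnfrsf19 had 54.4, 60.4 and 53.9 CPM in cKO and 58.5, 74.1 and 64.5 CPM in Ctrl. Only cKO replicate 2 lay above a Ctrl library, that labelled Ctrl replicate 1, and the log2 fold change was -0.22 ± 0.08, or -0.30 without Ctrl replicate 1. Tnfrsf1b had 2.13, 2.45 and 1.67 CPM in cKO and 3.40, 2.37 and 3.06 CPM in Ctrl (-0.50 ± 0.23, and -0.39 without Ctrl replicate 1). The TNF receptor 2 it encodes is carried in the brain largely by microglia, whose markers were lower in cKO. Their part in this value was not tested. Tnfrsf12a overlapped closely, with 3.14, 2.75 and 2.75 CPM in cKO and 2.92, 2.96 and 2.49 CPM in Ctrl (0.05 ± 0.19).

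The adaptor genes showed no common direction. Tradd, with 5.74, 5.62 and 6.19 CPM in cKO and 5.49, 5.92 and 5.66 CPM in Ctrl, varied little among libraries (0.04 ± 0.14). Fadd had 2.49, 1.14 and 1.08 CPM in cKO and 2.56, 2.31 and 1.87 CPM in Ctrl. Its cKO replicate 1 lay among the Ctrl libraries and cKO replicates 2 and 3 below all of them. The log2 fold change was -0.52 ± 0.31, -1.01 without cKO replicate 1 and -0.42 without Ctrl replicate 1. Ripk1 had 9.76, 5.97 and 7.002 CPM in cKO and 7.39, 7.70 and 5.91 CPM in Ctrl (0.12 ± 0.18), a difference that turned to -0.10 without cKO replicate 1.

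The median log2 fold change of the 9 genes other than Tnfrsf25 was -0.02 (0.02 without Ctrl replicate 1), and that of all tested genes was -0.00104. By edgeR's test over all genes 1 of the 10 was called, Tnfrsf25, higher in cKO, where 3.95% of all tested genes were called and 3.07% were called as higher. Of the other 9 none was called, and DESeq2 called none. An unadjusted edgeR p under 0.05 was reached by 2 of the 9, where 17.6% of all tested genes reached it. Tnfrsf19 was also called when Ctrl replicate 1 was left out, with no filter on low counts and with the replicate number as a block. Since the values of all 10 were known when they were chosen, nothing is read from these counts. By limma on log2 FPKM, with either pseudocount, none of the 10 was called, where that test called 110 or 95 genes in all. In 2 of the 10, Tnfrsf25 and Tnfrsf10b, all cKO libraries lay above all Ctrl libraries, against 12.5% of all tested genes, and in none did they lie below. Tnfrsf25 was picked for its difference. Tnfrsf10b held 8 and 9 counts in Ctrl replicates 1 and 3, under the filter's minimum count of 10, so its cKO libraries carried it past the filter. Nothing is read from this count either.

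**Figure D2:**
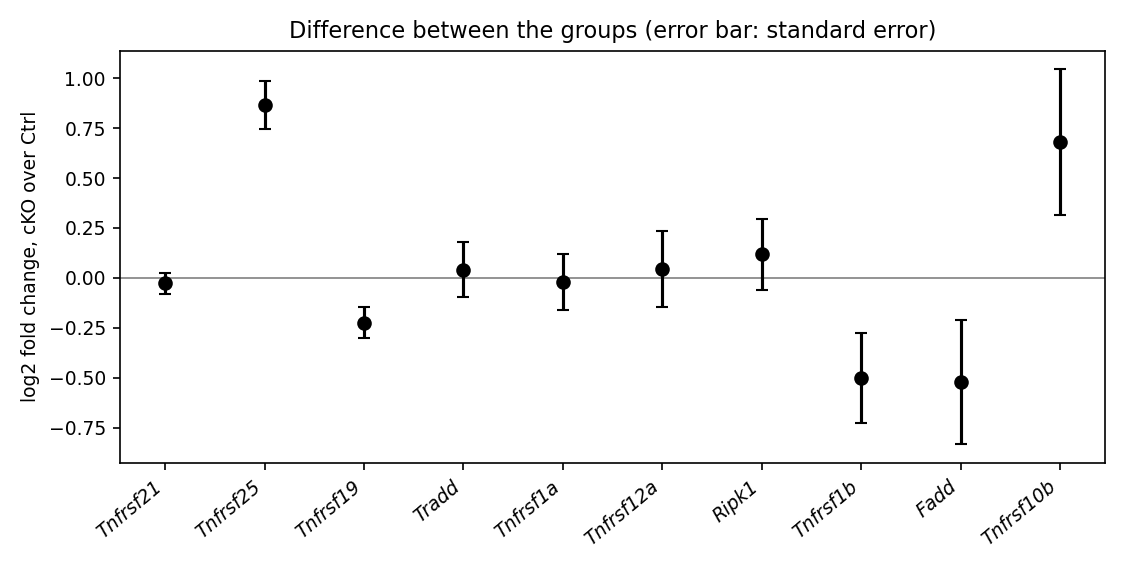
Log2 fold change of each gene, cKO over Ctrl (points, with standard errors), in the order of their levels. Tnfrsf25 stands at 0.87 with a bar of 0.12, while Tnfrsf10b, Fadd and Tnfrsf1b depart from 0 with bars of 0.23 to 0.36. The bars come from edgeR's fit, which draws on the spread of other genes as well.

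The genes on either side of Tnfrsf25 were not used to choose it, and they were tested. Whether reads of Tnfrsf25 were counted for them was not examined, so these tests may not be independent of that choice. Plekhg5, which encodes a guanine nucleotide exchange factor for RhoA, had 334, 372 and 367 CPM in cKO replicates 1 to 3 against 288, 321 and 310 CPM in Ctrl replicates 1 to 3. It rose, with no overlap between the groups, by 0.22 ± 0.05 (SE) on the log2 scale, with all 3 cKO libraries higher (edgeR, adjusted p = 0.0225). Espn, which encodes the actin-bundling protein espin, had 6.92, 7.29 and 7.86 CPM in cKO and 4.35, 5.63 and 5.97 CPM in Ctrl. Its groups did not overlap either, but it did not pass the test, at 0.47 ± 0.15 (edgeR, adjusted p = 0.103, and 0.0827 to 0.304 in the alternatives). In 12.5% of all tested genes all cKO libraries lay above all Ctrl libraries. Without Ctrl replicate 1 Espn stood at 0.34 (edgeR, adjusted p = 0.283). The call for Plekhg5 was lost with the offset for GC content and gene length (0.12, edgeR adjusted p = 0.177) and without Ctrl replicate 1 (0.18, edgeR adjusted p = 0.0526). It was also lost without cKO replicate 2 (0.19, adjusted p = 0.0989), cKO replicate 3 (0.20, adjusted p = 0.125) or Ctrl replicate 3 (0.23, adjusted p = 0.0511) in edgeR, and by limma on either FPKM scale (adjusted p = 0.115 and 0.116). All the adjusted p-values of edgeR, DESeq2 and limma for Plekhg5 lay between 0.000104 and 0.177.

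**Figure D3:**
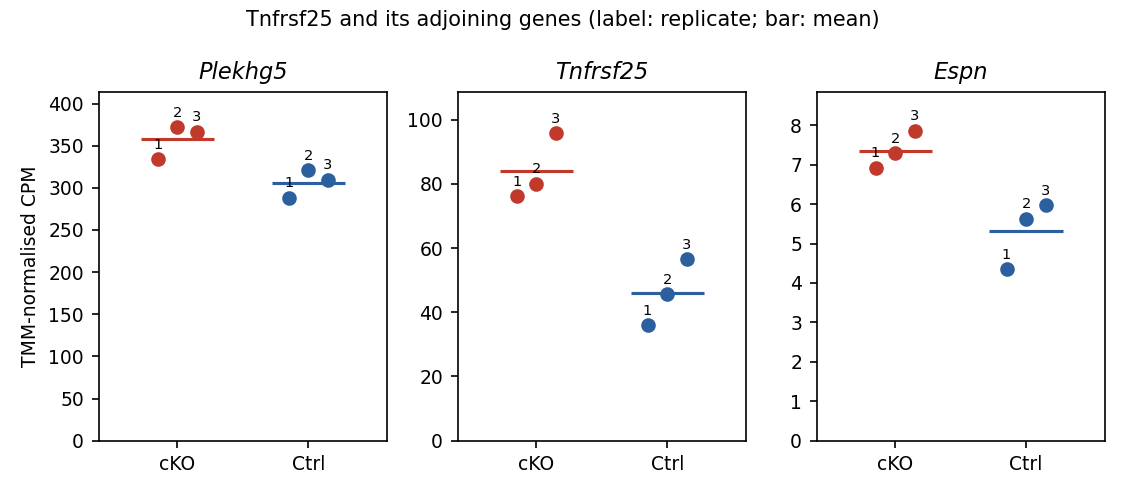
Normalised CPM of Plekhg5, Tnfrsf25 and Espn in each library, with the replicate number beside each point and bars for group means, each axis starting at 0. All 3 cKO libraries lie above all 3 Ctrl libraries in each gene, as they do in 12.5% of all tested genes.

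Further out the log2 fold changes of the 4 next tested genes were closer to 0. On the Plekhg5 side these were Nol9, which acts in ribosomal RNA processing (0.03), and the taste receptor gene Tas1r1 (-0.06). On the Espn side they were Acot7, an acyl-CoA thioesterase gene (-0.06), and the orphan receptor gene Gpr153 (0.12). None passed edgeR's test, with adjusted p-values of 0.603 to 0.913. Since Tnfrsf25 was chosen for its difference, nothing is read from its place above its neighbours. Counted per length, Tnfrsf25 stood at 49.5%, 46.8% and 56.7% of the FPKM of Plekhg5 in cKO replicates 1 to 3 and at 27.1%, 30.8% and 39.6% in Ctrl replicates 1 to 3. No gene of the table and no annotated transcript of Plekhg5 or Espn overlaps Tnfrsf25. Whether reads that run past the end of Plekhg5 or Espn were counted for Tnfrsf25, or reads of Tnfrsf25 for either of them, was not examined. The use of strand in the counting is not given in the sources used here.

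**Figure D4:**
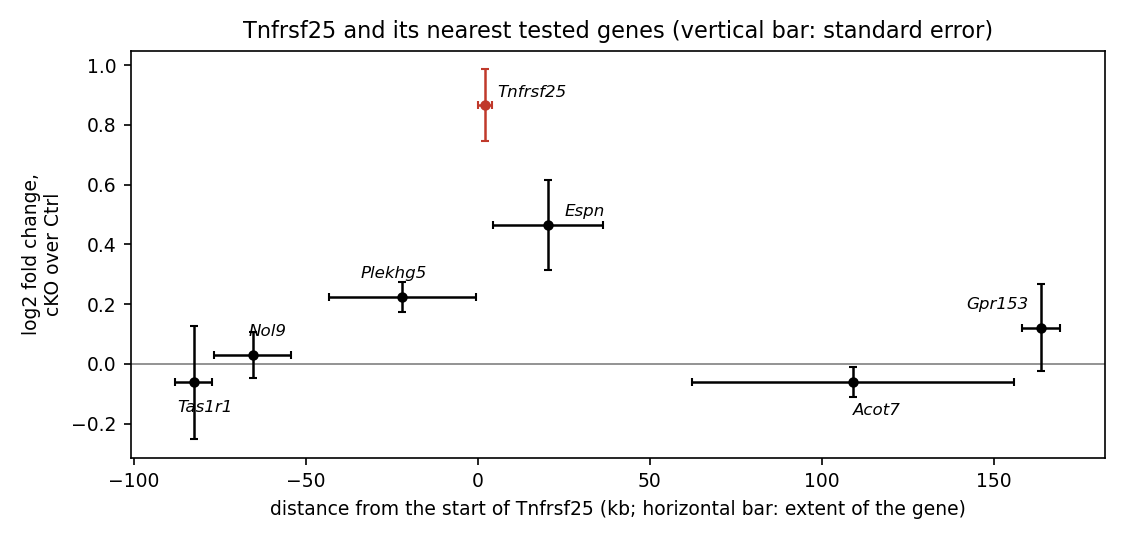
Log2 fold change, cKO over Ctrl, of Tnfrsf25 and the 3 nearest tested genes on each side, against distance from the start of Tnfrsf25 in kilobases, with horizontal bars for the extent of each gene and vertical bars for the standard error. Tnfrsf25 stands at 0.87, Espn at 0.47 and Plekhg5 at 0.22, and the outer 4 genes lie between -0.06 and 0.12.

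Among the genes most like Tnfrsf25 over the 6 libraries, by Pearson's r of log2 CPM, were Hid1 (0.998), the corepressor gene Sin3b (0.997), the SNARE gene Stx5a (0.996) and the endonuclease gene Mus81 (0.995). After the group means were taken out, so that only the variation between replicates counted, the most alike were Rtn4rl2 (0.999), Wls (0.997), R3hdm1 (0.995), Idua (0.991) and Fam193b (0.991). Espn had an r of 0.982 over the libraries and of 0.948 within groups, and Plekhg5 of 0.909 and 0.610. All these values rest on the same 6 libraries and their depth, and they are given as descriptions. Of the 9 other genes of the set, Tnfrsf10b was the most alike over the libraries (0.828) and Tradd within groups (0.564), while Tnfrsf1b (-0.809) and Fadd (-0.748) ran opposite over the libraries and Tnfrsf12a (-0.757) within groups. Values over the libraries include the group difference for which Tnfrsf25 was picked. Within groups Tnfrsf10b stood at 0.24, Tnfrsf1b at -0.47 and Fadd at -0.60.

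T lymphocytes are the best known site of the receptor. Of 16 T cell markers 5, namely Cd3e, Cd3g, Cd2, Cd28 and Cd8b1, had no count in any library. Only Lck, Zap70 and Il7r passed the filter on low counts, and none of these changed by edgeR's test (0 with an unadjusted p under 0.05, 0 by DESeq2 and 0 by limma). Zap70, a kinase gene of T cell receptor signalling, was the highest of the 3, at 3.85, 3.11 and 4.15 CPM in cKO and 3.70, 2.13 and 2.70 CPM in Ctrl. The 16 markers together summed to 6.51 to 7.69 CPM in cKO and 5.92 to 7.39 CPM in Ctrl, which overlap. Tnfrsf25 was at 35.9 CPM or more in every library. These CPM are not scaled for gene length, and which cells the Tnfrsf25 counts came from was not tested. Tnfsf15, the gene of the receptor's ligand, had 0 counts in all 6 libraries, which allows up to 0.179 CPM per library by counting error alone.

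The rest of the pathway was examined in 6 lists with 134 genes, of which 98 passed the filter on low counts. By edgeR's test 4 rose, none fell and 94 did not pass, where 3.95% of all tested genes were called. An unadjusted p under 0.05 was reached by 18 of the 98, or 18.4%, close to the 17.6% of all tested genes. DESeq2 called 6 of them, of which 1 fell, among 803 genes called in all, and limma called 1. In 13 of the 98 all cKO libraries lay above all Ctrl libraries and in 11 below, where 22.9% of all tested genes showed no overlap in either direction. The median log2 fold change of these lists together was -0.02. Called genes came from the adaptors, ligases and kinases of the receptor complexes and from the NF-kB list.

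Of 33 tested adaptors, ubiquitin ligases and kinases 3 rose, with a list median of 0.00214, where 3.07% of all tested genes rose. Traf7, a ubiquitin ligase of the TRAF family, had 72.6, 73.8 and 75.1 CPM in cKO and 53.9, 55.0 and 57.2 CPM in Ctrl. It was the only one of the 4 called genes to pass in each of the 16 alternatives, at 0.41 ± 0.05 on the log2 scale (edgeR, adjusted p = 0.00051, and 4.47e-09 to 0.0243 in the alternatives with edgeR, DESeq2 or limma). Rnf31, the catalytic subunit gene of the linear ubiquitin ligase complex, had 41.7, 42.9 and 44.2 CPM in cKO and 30.8, 34.0 and 39.2 CPM in Ctrl (0.30 ± 0.08, edgeR adjusted p = 0.0446). Tnip2, which encodes a partner of the deubiquitinase A20, had 69.8, 73.6 and 71.6 CPM in cKO and 54.4, 62.5 and 62.0 CPM in Ctrl (0.26 ± 0.06, edgeR adjusted p = 0.0235). In each of the 3 genes no cKO library overlapped a Ctrl library, as in 22.9% of all tested genes. Traf2 and Birc2, direct partners of the receptor complex, did not pass, at -0.03 ± 0.11 and 0.08 ± 0.06 with edgeR adjusted p-values of 0.927 and 0.559. Madd and Nsmaf, named after their values were seen, did not pass either (0.14 and 0.21, edgeR adjusted p = 0.053 and 0.0788). Madd was called as higher by DESeq2 and with the replicate number as a block. Nsmaf was called as higher with no filter, with the block and without Ctrl replicate 3.

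Of 13 tested NF-kB genes, the kinase gene Ikbkb rose, where 3.07% of all tested genes rose. It had 75.9, 77.2 and 91.9 CPM in cKO and 61.9, 67.4 and 68.1 CPM in Ctrl, with no overlap and cKO replicate 3 far above the rest (0.31 ± 0.07, edgeR adjusted p = 0.0229). The other 12 did not pass, and the list's median was 0.09. When Ctrl replicate 1 was left out, the calls for Rnf31 (0.23, edgeR adjusted p = 0.125), Tnip2 (0.20, adjusted p = 0.065) and Ikbkb (0.27, adjusted p = 0.064) were lost, and without cKO replicate 3 the same 3 calls were lost (edgeR adjusted p = 0.183, 0.102 and 0.127). Leaving out cKO replicate 2 ended the calls for Rnf31 (0.108 in edgeR) and Tnip2 (0.0911), leaving out Ctrl replicate 2 those for Rnf31 (0.128) and Ikbkb (0.0553), and leaving out cKO replicate 1 that for Rnf31 (0.0839), all as adjusted p-values. With the offset for GC content and gene length Rnf31 (0.21, edgeR adjusted p = 0.164) and Ikbkb (0.26, adjusted p = 0.0569) did not pass. Across the alternatives the adjusted p-values of edgeR, DESeq2 and limma ran from 0.00177 to 0.183 for Rnf31, 0.00136 to 0.102 for Tnip2 and 2e-05 to 0.191 for Ikbkb.

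No ligand, no further receptor, no gene of the death machinery and no target gene was called by edgeR with the filter and scaling used throughout. Of 21 further receptor genes 12 were tested, none with an unadjusted edgeR p under 0.05, and DESeq2 and limma called none. Relt had the highest CPM among them, at 7.24 ± 0.704 CPM in cKO and 7.02 ± 1.00 CPM in Ctrl (SD, n = 3 each), followed by Ltbr, the lymphotoxin beta receptor gene, at 5.14 ± 0.756 CPM in cKO and 5.03 ± 1.37 CPM in Ctrl. Of 18 ligand genes 5 were tested, and 1 had an unadjusted p under 0.05, while DESeq2 and limma called none. That gene was Eda, a ligand gene of skin appendage development, with 7.93 ± 0.506 CPM in cKO and 9.55 ± 0.654 CPM in Ctrl (-0.27 ± 0.12 on the log2 scale, edgeR adjusted p = 0.257). Tnfsf12, which encodes the ligand of the Tnfrsf12a receptor, had 2.39 ± 0.701 CPM in cKO and 2.70 ± 0.446 CPM in Ctrl. Of 23 tested genes of the death machinery 5 had an unadjusted edgeR p under 0.05 (21.7%, where 17.6% of all tested genes had one), limma called none and DESeq2 called 1. That gene, named after its value was seen, was Apaf1, the scaffold of the apoptosome (-0.26 in edgeR, adjusted p = 0.0539). Lower values of Apaf1 in cKO were also called by edgeR when Ctrl replicate 1 was left out, with upper-quartile scaling, with no filter, with the gene length offset and with the replicate number as a block. Htra2, a mitochondrial protease gene, was called as higher with no filter and with the block, and the survival gene Bcl2 as lower with no filter. Parp1, a DNA damage sensor gene, and the survival gene Bcl2l1 had the highest CPM of that list, with log2 fold changes of 0.06 and -0.07. Among 12 tested targets of TNF and NF-kB 1 had an unadjusted edgeR p under 0.05, DESeq2 and limma called none, and the median was -0.12. Sod2, a mitochondrial superoxide dismutase gene, had 93.2 ± 0.916 CPM in cKO and 102.0 ± 4.02 CPM in Ctrl (-0.13 ± 0.05, edgeR adjusted p = 0.157), and Csf1, a growth factor gene for microglia, stood at -0.04 ± 0.08. Many of these targets are also expressed by microglia and astrocytes, whose summed markers were lower in cKO, and the part of this in the median was not tested. The inflammatory genes Ccl2 and Cxcl2, named because of their values, had no count in any library.

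**Figure D5:**
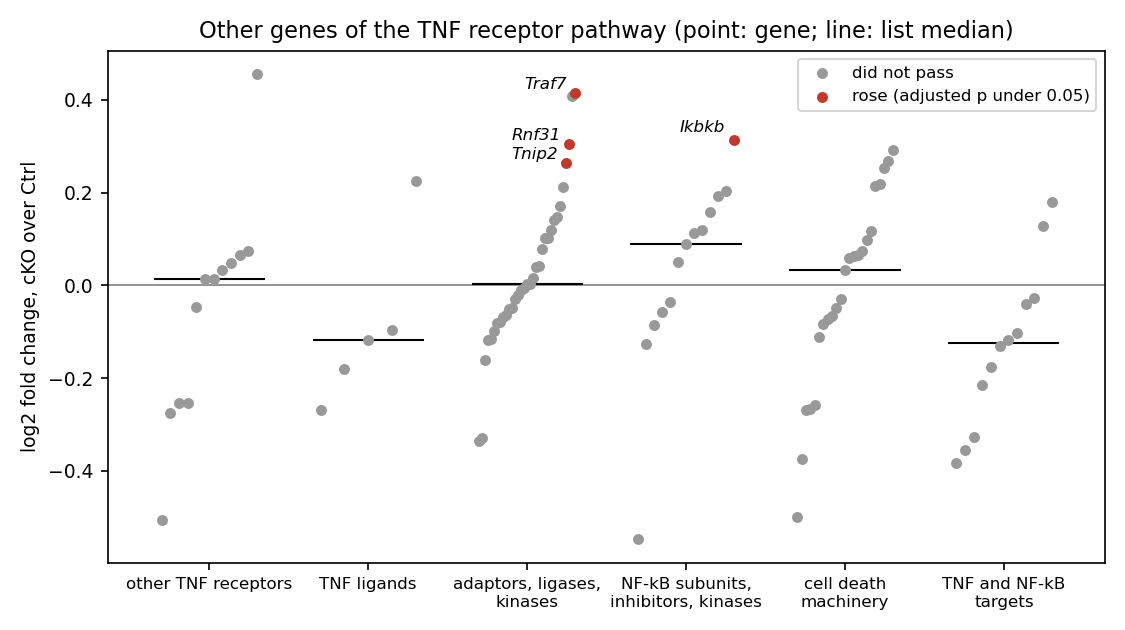
Log2 fold change, cKO over Ctrl, of the 98 tested genes of the 6 pathway lists (points, ordered within each list), with a line at each list's median. Traf7, Rnf31, Tnip2 and Ikbkb, in red, rose, at 0.26 to 0.41, and the other 94 genes, in grey, did not pass the test.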

How the data were processed

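RNA-seq libraries from mouse dentate gyrus were analysed, 3 labelled cKO and 3 labelled Ctrl, grouped by title. The authors deposited raw counts per gene and FPKM values for the same genes. The tools named for these files, per the submitters' processing notes, are featureCounts 1.5.0-p3, HISAT2 2.0.5 and StringTie 1.3.3b, with the build GRCm38. Of the annotation release, the strand setting and the tool behind each value, the sources used here say nothing. For testing, the authors' counts went into edgeR 4.0.16 under R 4.3.3: filterByExpr (minimum count 10, total 15), TMM scaling, the quasi-likelihood F test with group as the only term, and Benjamini-Hochberg adjustment over all tested genes (changed: under 0.05). The standard error is the log2 fold change over the square root of F. Since edgeR draws each gene's dispersion towards that of other genes, it does not rest on the gene's own spread alone. CPM values are TMM-normalised. Within-group SDs and correlations used log2 CPM with a prior count of 2. The test was checked on simulated counts. The alternatives used DESeq2 1.42.0, limma 3.58.1 on log2(FPKM + 0.1) and log2(FPKM + 1), other scalings and filters, a gene length offset, the replicate number as a block and leaving out each library. Offsets for GC content with length were chosen after the data were seen (GENCODE M21, 98.7% of tested genes matched). No libraries were counted as duplicates, with a chi-square per degree of freedom of 2.71 to 4.70 between replicates. The genes and lists were chosen with earlier results of these data known. Genes named were the set itself, up to 4 changed genes of each list of smallest p (otherwise the 2 of highest CPM), Tnfsf15, Traf2, Birc2, the nearest 3 tested genes on each side of Tnfrsf25 and the 5 most correlated genes of at least 5 CPM, over the libraries and within groups, predicted genes left out; 1 of these is not reported here.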

Additional observations from a re-analysis of the deposited data

How the results depend on the processing

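The log2 fold change of Tnfrsf25 was positive in all 16 alternatives, between 0.72 and 1.04, and the median of the other 9 genes lay between -0.05 and 0.02. Over all genes edgeR called 668 as changed, against 1155 (729 higher, 426 lower) with no filter on low counts, 110 and 95 by limma on log2(FPKM + 0.1) and log2(FPKM + 1), 400 after the GC content and length offset, and 214 to 535 when 1 library was left out, fewest without cKO replicate 3. The 4 called pathway genes became 8 with no filter, 8 with the replicate block (808 over all genes), 1 and 1 by limma on either FPKM scale, 2 after the GC content and length offset and 1 to 5 when 1 library was left out. Same-numbered libraries deviated together with correlations of 0.0914, 0.0180 and 0.00846, too low to pair them. Nol9 changed sign after the GC content and length offset (-0.0027) and ranged from -0.023 to 0.10 when 1 library was left out, and Tas1r1 from -0.16 to 0.084, with no call in either gene. The cause of these shifts was not tested. Depth limits Tnfrsf10b, Fadd, Tnfrsf1b and Tnfrsf12a, which held 8 to 59 counts per library.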
